A study of Mus musculus with 15 samples.

Results

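Mitochondrial ribosomal proteins are the proteins, encoded in the nucleus, that build the ribosome inside mitochondria. The members described here were the rows of the count tables whose gene symbol begins with Mrpl or Mrps followed by a number, without pseudogene copies. There were 76 of them among 17493 genes, and all 76 passed the filter on low counts that left 10831 genes to be tested. Of these, 49 belong to the large subunit, 26 to the small subunit, and Mrps36 stands apart, since the protein is now known as a part of the 2-oxoglutarate dehydrogenase complex. Mrps18a and Mrps30 are counted with the large subunit, where their proteins sit despite their names. A bacterial homologue is known for 48 members, and 28 are specific to mitochondria.

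Mitochondrial ribosomes translate the few messages of the mitochondrial genome, all of which encode core subunits of the respiratory chain and the ATP synthase. The messenger, transfer and ribosomal RNAs come from mitochondrial DNA, while every ribosomal protein is made in the cytosol and imported. In T cells, mitochondrial translation is known to be needed for proliferation and for effector function after activation.

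RNA was sequenced from CD8+ OT-I T cells of female mice of the strain C57BL/6-Tg(TcraTcrb)1100Mjb/Crl. These mice carry a transgenic T cell receptor against an ovalbumin peptide, so all groups shared that receptor. The unstimulated group was taken at 0 h without treatment. The stimulated groups were 50000 T cells per well kept for 8 h or 22 h with immunofilaments (IF) at 5 ng/ml, which carried SIITFEKL-loaded MHC and interleukin-2, or with 20000 SIITFEKL-pulsed Flt3 ligand dendritic cells (DC). Each of the 5 groups had 3 libraries, made from viable cells sorted as CD8+ and CD103-. Sample titles end in Don1, Don2 or Don3 in every group. The labels do not spell out Don, which can be read as donor, and do not say whether a number is the same animal throughout or whether animals were pooled. If libraries of a group share their source, the p-values below measure only the spread between these libraries, which may be technical.

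Total counts ran from 2892874 to 19806730 per library, with the lowest totals at IF 8 h and the highest in IF 22 h replicate 3. Members were well covered at this depth: the least abundant, Mrps28, had 599 counts over all libraries and at least 17 in each. The 8 CD8 T cell markers were all detected, with summed levels of 10635 to 11528 CPM (counts scaled to a common library total) in unstimulated cells and 4820 to 7471 CPM in stimulated ones. The 16 dendritic cell markers summed to 645 to 1541 CPM in unstimulated cells. With IF the sum was 220 to 466 CPM after 8 h and 374 to 633 CPM after 22 h, and with DC it was 911 to 1261 CPM and 488 to 656 CPM. Most of each sum came from Cd74, Cst3 and the MHC class II genes H2-Aa, H2-Ab1 and H2-Eb1. Single markers went other ways than the sum. Fscn1 had 0 to 6.75 CPM in unstimulated and 0.268 to 0.663 CPM in IF 8 h libraries, 126 to 168 CPM at DC 8 h, 5.83 to 43.8 CPM at IF 22 h and 72.9 to 94.8 CPM at DC 22 h. Ccl22 was at or below 2.98 CPM in unstimulated and IF libraries and at 6.41 to 18.2 CPM in DC libraries. Of the 16, the markers at 0 in every library of a group were Zbtb46 and Ccl17 in unstimulated cells and Zbtb46 and Batf3 at IF 8 h. Marker sums of B cells, CD4 T cells, neutrophils, erythroid cells and macrophages stayed at or below 35.1 CPM in every library. The part of other cells in the values of the members was not tested. In bulk RNA, fewer cells of a type and less RNA per cell cannot be told apart.

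Promoters are shown for the 4 members with the smallest p over the 5 groups among those with a promoter sequence. Mrpl4 and Mrps34 had no sequence and were passed over, so direction played no part in the choice. The 4 shown rose against unstimulated cells in at least 1 stimulated group, while Mrpl4 and Mrps34 fell in 1. RefSeq (GRCm38.p6) held a promoter for 67 of the 76 members, 73 promoters in all, each from 250 bases before to 50 bases after RefSeq's start of the gene. Against the gene start in GENCODE, RefSeq's start lay 310 bases downstream for Mrps10 and 66 bases downstream for Mrps6, and both were the same for Mrpl44. The Mrps10 window therefore holds 0 bases upstream of GENCODE's start, and that of Mrps6 holds 184. Capitals mark a match, on the strand shown, to a motif named after a factor known to act on nuclear genes of mitochondria. These were the ETS motif CCGGAAGT in Mrps22 and the NRF1 motif GCGCANGCG in Mrpl44.
Mrps6, chr16:92058086-92058385 (+ strand): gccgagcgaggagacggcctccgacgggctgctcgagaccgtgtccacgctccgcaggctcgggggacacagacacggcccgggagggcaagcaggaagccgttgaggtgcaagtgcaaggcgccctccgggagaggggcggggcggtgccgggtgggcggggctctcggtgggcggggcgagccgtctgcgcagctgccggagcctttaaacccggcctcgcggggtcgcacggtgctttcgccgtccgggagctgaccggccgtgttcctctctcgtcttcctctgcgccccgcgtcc
Mrps10, chr17:47368947-47369246 (+ strand): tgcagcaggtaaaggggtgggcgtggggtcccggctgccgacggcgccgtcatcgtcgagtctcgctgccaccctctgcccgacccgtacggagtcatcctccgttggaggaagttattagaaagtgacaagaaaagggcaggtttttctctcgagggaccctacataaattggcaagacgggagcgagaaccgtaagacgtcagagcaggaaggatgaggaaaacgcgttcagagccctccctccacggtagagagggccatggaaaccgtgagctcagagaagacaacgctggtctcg
Mrps22, chr9:98601630-98601929 (- strand): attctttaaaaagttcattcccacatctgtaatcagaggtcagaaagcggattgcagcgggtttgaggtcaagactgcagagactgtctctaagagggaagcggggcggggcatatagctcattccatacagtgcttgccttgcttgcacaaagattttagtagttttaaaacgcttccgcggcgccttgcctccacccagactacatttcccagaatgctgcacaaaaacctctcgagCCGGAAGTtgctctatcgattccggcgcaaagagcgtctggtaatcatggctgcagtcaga
Mrpl44, chr1:79775768-79776067 (+ strand): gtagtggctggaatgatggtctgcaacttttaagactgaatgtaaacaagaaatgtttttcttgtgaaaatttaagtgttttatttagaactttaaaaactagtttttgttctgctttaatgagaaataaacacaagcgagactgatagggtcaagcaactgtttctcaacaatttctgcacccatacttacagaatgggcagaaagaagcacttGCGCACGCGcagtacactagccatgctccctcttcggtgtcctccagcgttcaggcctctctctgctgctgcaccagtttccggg

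The search covered both strands and also used the YY1 motif AAGATGGCG and the E-box CACGTG, to which Myc binds. None of the 4 motifs was found in the windows of Mrps6 and Mrps10, which says nothing of the sequence upstream of these windows. The NRF1 motif was in 15 of 73 member promoters (20.5%), against 6.25% of all 32851 promoters of the same length. The ETS motif was in 12 (16.4%), against 3.89% of all promoters, the YY1 motif in 8 (11% against 1.40%) and the E-box in 7 (9.59% against 7.15%). A match describes letters in this window and is not a measured binding site.

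Between 2 and 4 of the 76 members were called in each comparison of stimulated with unstimulated cells. Members that were not called are not shown to be unchanged. Levels are normalised counts in CPM, with library totals scaled by the trimmed mean of M values, TMM. Differences are log2 fold changes ± SE from edgeR's quasi-likelihood test over all 15 libraries, called at an adjusted p under 0.05 (Benjamini-Hochberg over all genes tested). Against unstimulated cells, 2 of 76 members were called at IF 8 h, 1 higher and 1 lower, where 7.76% of all genes were called (3.04% higher and 4.72% lower). At DC 8 h 3 members were called, all higher, where 6.82% of all genes were called (2.75% higher and 4.07% lower). At IF 22 h 2 members were higher and 1 was lower, where 6.08% of all genes were called (2.63% higher and 3.44% lower). At DC 22 h 4 members were called, all higher, where 7.76% of all genes were called (3.41% higher and 4.35% lower). Fitted with the DC 22 h and unstimulated libraries alone, 0 members were called at DC 22 h, where 5.13% of all genes were. Mrps6, Mrps10, Mrps22 and Mrpl44 then had adjusted p-values by edgeR of 0.0584, 0.0880, 0.0514 and 0.0771. The members' share of calls ran from 2.63% at IF 8 h to 5.26% at DC 22 h, below that of all genes in all 4 comparisons on this scale. With so few calls, these shares lie near the background and are not read as a result about the members. The 4 comparisons share their control libraries. Without both DC libraries numbered 2, which are described below, the counts were 6, 3, 7 and 0 in the same order, 7.89%, 3.95%, 9.21% and 0% of the members where 12.7%, 6.35%, 10.2% and 6.29% of all genes were called (an alternative chosen after seeing the data). Directions are relative to the TMM scale. Scaled by library size alone, all genes had medians of 0.26, 0.30, 0.22 and 0.37, and 4, 7, 7 and 17 members were called, all of them higher. On that scale the members' share was 5.26%, 9.21%, 9.21% and 22.4%, and that of all genes 10.3%, 9.96%, 7.74% and 14.6%, so the members' share lay above that of all genes in both 22 h comparisons.

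The middle of the members lay slightly above zero. In the order IF 8 h, DC 8 h, IF 22 h, DC 22 h, the median log2 fold change of the members was 0.14, 0.13, 0.15 and 0.16, beside 0.02, 0.04, 0.01 and 0.04 for all genes. These medians are smaller than 0.19, the SD between libraries of the members' median log2 level less that of all genes, pooled over all groups. That spread differed between groups. The members' median deviation from the group mean was 0.02, 0.05 and -0.07 in unstimulated libraries and 0.05, -0.08 and 0.06 at IF 8 h. At DC 22 h it was -0.11, 0.42 and -0.24. A spread between single libraries is not the error of a difference between group means. For 54, 59, 57 and 51 of the 76 members, in the same order, the 95% interval of the difference lay within a 2-fold change either way. The share of all genes whose interval lay within it was 41.8%, 44.5%, 45.3% and 43.1%.

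**Figure D1:**
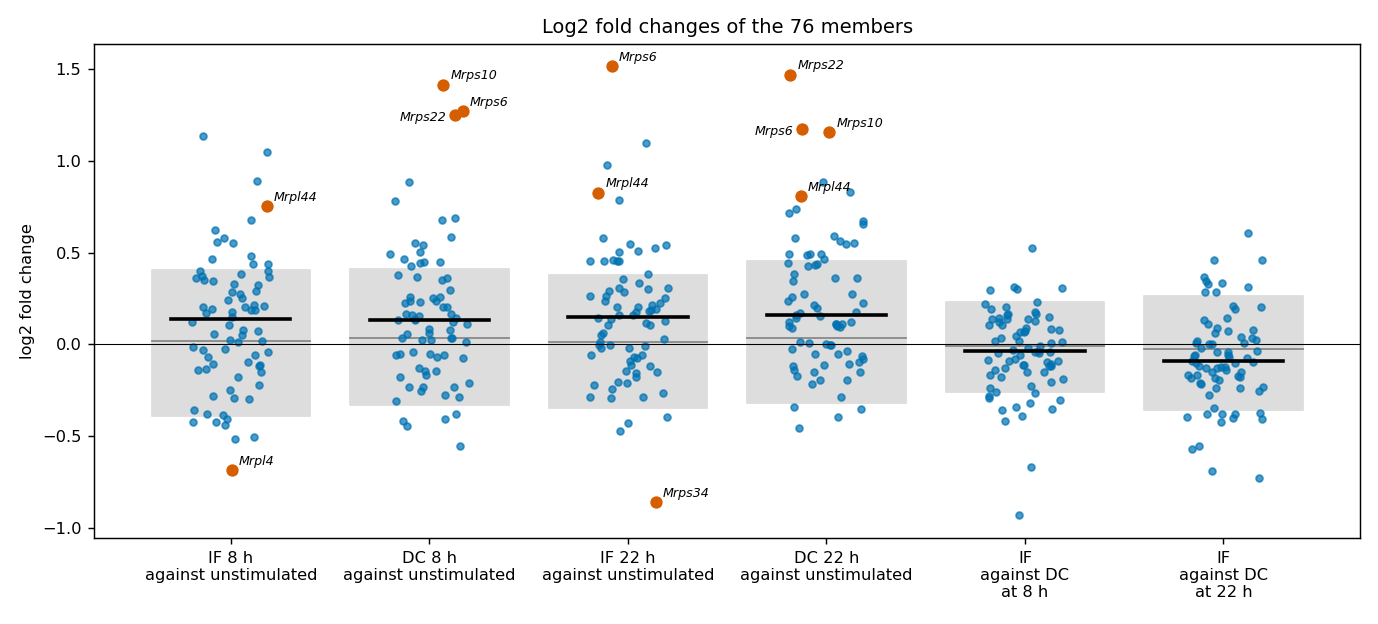
Log2 fold change (y axis) of each of the 76 members (points, spread sideways for sight) in 4 comparisons with unstimulated cells and 2 of IF with DC (x axis). Orange points are members past an adjusted p of 0.05, black lines the members' median, grey boxes the middle 50% of all 10831 tested genes and grey lines their median. The members' medians against unstimulated cells lie between 0.13 and 0.16, inside the grey boxes, and no member is orange in either comparison of IF with DC.

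Among small subunit proteins, Mrps6, which has a bacterial homologue, gave the lowest adjusted p of any member. It had 24.8, 23.5 and 24.9 CPM in unstimulated replicates 1 to 3 and 64.6, 37.1 and 49.0 CPM at IF 8 h. It had 45.9, 87.1 and 44.0 CPM at DC 8 h, 55.8, 76.6 and 76.9 CPM at IF 22 h and 44.7, 84.6 and 35.9 CPM at DC 22 h. All 12 stimulated libraries lay above all 3 unstimulated ones. By edgeR's quasi-likelihood test Mrps6 rose at IF 22 h by 1.52 ± 0.32 (adjusted p 0.00992), at DC 8 h by 1.27 ± 0.32 (adjusted p 0.0243) and at DC 22 h by 1.17 ± 0.32 (adjusted p 0.0336). The difference at IF 8 h was 1.05 ± 0.33 and did not pass (adjusted p 0.0599 by edgeR). It passed when the fit held these groups alone (0.00738), but in 0 of 6 fits that left out 1 library.

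Mrps6 spans chr16:92058270-92112227 (GRCm38, plus strand) and shares exonic bases with Slc5a3 and Gm49711 on the same strand. Where along the gene these bases lie was not examined, and only 3′ ends were read, so whether reads were shared is not known. Slc5a3, which encodes a sodium-coupled inositol transporter, had 0.881 to 3.61 CPM in unstimulated libraries and 2.65 to 8.84 CPM in stimulated ones. Its differences were 1.74 ± 0.56 and 1.44 ± 0.55 with IF after 8 h and 22 h and 1.55 ± 0.55 and 1.63 ± 0.55 with DC, and none passed (edgeR adjusted p 0.0685 to 0.137). These are larger than those of Mrps6 in 3 of the 4 comparisons. In CPM, the group means of Slc5a3 were 1.81 in unstimulated and 4.98 to 6.03 in stimulated cells. Those of Mrps6 were 24.4 in unstimulated and 50.2 to 69.8 in stimulated cells. The part of Slc5a3 reads in the Mrps6 values was not tested. Leaving out 1 library at a time, the Mrps6 call at IF 22 h held in 5 of 6 fits and was lost without unstimulated replicate 2 (adjusted p 0.0513 by edgeR). At DC 8 h it held in 2 of 6 fits. It was lost there without unstimulated replicate 1, 2 or 3 (0.0776, 0.0920 and 0.0774), where the difference was 1.29, 1.26 and 1.30. Without DC 8 h replicate 2 the call was lost as well (0.142), with a difference of 0.88. At DC 22 h it also held in 2 of 6, with adjusted p-values by edgeR of 0.0967, 0.111 and 0.0970 without unstimulated replicate 1, 2 or 3. Without DC 22 h replicate 2 the difference was 0.74 and the adjusted p 0.169 by edgeR.

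Mrps10, a protein of the head of the small subunit with a bacterial homologue, rose in DC-stimulated cells. It had 11.7, 12.5 and 6.28 CPM in unstimulated cells, 16.9, 22.9 and 28.1 CPM at IF 8 h and 26.5, 37.9 and 17.8 CPM at DC 8 h. It had 17.4, 19.6 and 23.5 CPM at IF 22 h and 16.3, 32.5 and 19.9 CPM at DC 22 h. No stimulated library overlapped the unstimulated ones, and unstimulated replicate 3 was the lowest of its group. The difference was 1.42 ± 0.34 at DC 8 h (adjusted p 0.0178) and 1.16 ± 0.34 at DC 22 h (adjusted p 0.0460) by edgeR's quasi-likelihood test. With IF it was 1.13 ± 0.35 at 8 h and 0.98 ± 0.34 at 22 h and did not pass (adjusted p 0.0556 and 0.105 by edgeR). At IF 8 h it passed with only the groups compared (0.0358) and with a replicate block (0.0447). It passed there in 0 of 6 fits that left out 1 library.

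The Mrps10 call at DC 8 h held in 4 of 6 fits that left out 1 library. It was lost without unstimulated replicate 3 (adjusted p 0.0885 by edgeR) and without DC 8 h replicate 2 (0.0960). At DC 22 h it held in 2 of 6. There the adjusted p by edgeR was 0.0892, 0.0760 and 0.177 without unstimulated replicate 1, 2 or 3, and 0.189 without DC 22 h replicate 2. Mrps10 lies at chr17:47368887-47381417 (plus strand) and shares no exonic bases with another gene of the GENCODE annotation.

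Mrps22 is specific to the mitochondrial small subunit, and inherited defects in its human counterpart cause mitochondrial disease. It had 7.19, 7.95 and 7.68 CPM in unstimulated cells, 17.7, 14.6 and 9.91 CPM at IF 8 h and 17.5, 23.3 and 13.4 CPM at DC 8 h. It had 14.8, 16.5 and 17.6 CPM at IF 22 h and 18.2, 33.0 and 12.2 CPM at DC 22 h. Again no stimulated library reached down to the unstimulated range, and the highest value of all was DC 22 h replicate 2. Mrps22 rose at DC 22 h by 1.47 ± 0.34 (adjusted p 0.0136) and at DC 8 h by 1.25 ± 0.34 (adjusted p 0.0345) by edgeR's quasi-likelihood test. The differences of 0.89 ± 0.35 at IF 8 h and 1.10 ± 0.34 at IF 22 h did not pass (adjusted p 0.134 and 0.0676 by edgeR).

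At DC 22 h the Mrps22 call held in 4 of 6 fits that left out 1 library. It was lost without unstimulated replicate 1, where the difference was 1.44 (adjusted p 0.0588 by edgeR). The call was also lost without DC 22 h replicate 2, where the difference was 1.02 (0.0710). At DC 8 h it held in 1 of 6. The adjusted p by edgeR there was 0.111, 0.0975 and 0.0992 without unstimulated replicate 1, 2 or 3, and 0.0752 and 0.148 without DC 8 h replicate 1 or 2. Mrps22 lies at chr9:98588730-98601660 (minus strand), with no exonic overlap.

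Mrps34, another protein specific to the mitochondrial small subunit, was the only called member of that subunit that fell. It had 41.7, 57.1 and 43.3 CPM in unstimulated cells and 25.8, 25.8 and 26.6 CPM at IF 22 h. It had 35.5, 32.2 and 49.3 CPM at IF 8 h, 37.8, 41.7 and 47.0 CPM at DC 8 h and 43.4, 48.9 and 34.01 CPM at DC 22 h. The IF 22 h libraries lay below all other libraries, while the other stimulated groups overlapped the unstimulated one. The difference at IF 22 h was -0.86 ± 0.21 (adjusted p 0.0213 by edgeR's quasi-likelihood test). With IF at 8 h the difference was -0.28 ± 0.21, with DC it was -0.17 ± 0.21 at both times, and none of these passed (edgeR adjusted p 0.454 to 0.708).

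The Mrps34 call held in 3 of 6 fits that left out 1 library and was lost without unstimulated replicate 2 (adjusted p 0.116 by edgeR) and without IF 22 h replicate 2 or 3 (0.0805 and 0.0759). It was also lost with library size alone, where all called members were higher. Mrps34 lies at chr17:24895116-24897502 (plus strand) and shares exonic bases with Nme3 on the same strand and Mapk8ip3 on the opposite strand. At IF 22 h the difference was 0.00 ± 0.24 for Nme3 and 0.00 ± 0.25 for Mapk8ip3, and neither passed (edgeR adjusted p 1.00 and 0.998).

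Of the large subunit, Mrpl44 is specific to mitochondria and carries a fold known from RNA-cutting enzymes. It had 12.8, 14.8 and 11.4 CPM in unstimulated cells, 23.7, 19.2 and 22.8 CPM at IF 8 h and 21.5, 24.5 and 16.6 CPM at DC 8 h. It had 20.7, 23.4 and 25.2 CPM at IF 22 h and 21.7, 24.9 and 21.9 CPM at DC 22 h. All stimulated libraries lay above the unstimulated ones, within a narrow range. With IF the difference was 0.75 ± 0.22 after 8 h (adjusted p 0.0425) and 0.83 ± 0.21 after 22 h (adjusted p 0.0279) by edgeR's quasi-likelihood test. With DC it was 0.81 ± 0.21 after 22 h (adjusted p 0.0258 by edgeR) and 0.68 ± 0.21 after 8 h, which did not pass (adjusted p 0.0631).

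These Mrpl44 calls lay close to the threshold. At IF 8 h the call was lost when the fit held these 2 groups alone (0.0704 by edgeR) and in all 6 fits that left out 1 library, 3 without an unstimulated and 3 without an IF 8 h library, with edgeR adjusted p-values of 0.0524 to 0.148. At IF 22 h it was lost without unstimulated replicate 1, 2 or 3 (0.0922, 0.0515 and 0.111 by edgeR) and without IF 22 h replicate 2 or 3 (0.0887 and 0.127). At DC 22 h it was lost without unstimulated replicate 1 or 3 (0.0827 and 0.102 by edgeR) and without DC 22 h replicate 1 or 2 (0.0567 and 0.0736). Mrpl44 lies at chr1:79776018-79781445 (plus strand) and shares exonic bases with Wdfy1 on the opposite strand, an endosomal adaptor gene. Wdfy1 itself rose at IF 8 h by 1.30 ± 0.35 (adjusted p 0.0321 by edgeR), with 19.2, 8.31 and 6.05 CPM in unstimulated cells and 23.9, 24.9 and 35.4 CPM at IF 8 h. That call held in 1 of 6 fits that left out 1 library, the one without unstimulated replicate 1, where the difference was 1.94. It was lost without unstimulated replicate 2 or 3 (0.129 and 0.121 by edgeR) and without IF 8 h replicate 1, 2 or 3 (0.0553, 0.0533 and 0.127). How reads were assigned between both strands is not given in the sources used here.

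Mrpl4, whose bacterial homologue lines the exit tunnel of the ribosome, fell at IF 8 h and did not differ past the threshold at IF 22 h. It had 77.8, 65.8 and 86.4 CPM in unstimulated cells, 59.6, 42.1 and 40.7 CPM at IF 8 h and 77.6, 102.5 and 80.0 CPM at IF 22 h. It had 60.0, 57.1 and 54.9 CPM at DC 8 h and 70.9, 62.3 and 55.5 CPM at DC 22 h. The IF 8 h libraries lay below all unstimulated and all IF 22 h libraries, and the DC 8 h libraries also lay below the unstimulated ones. The difference from unstimulated cells was -0.68 ± 0.19 at IF 8 h (adjusted p 0.0384 by edgeR's quasi-likelihood test) and 0.18 ± 0.19 at IF 22 h (adjusted p 0.649). At DC 8 h it was -0.42 ± 0.19 and at DC 22 h -0.28 ± 0.19, and neither passed (edgeR adjusted p 0.213 and 0.391).

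The Mrpl4 call at IF 8 h held in 2 of 6 fits that left out 1 library. It was lost without unstimulated replicate 1 or 3 (adjusted p 0.0899 and 0.134 by edgeR) and without IF 8 h replicate 2 or 3 (0.119 and 0.146). With library size alone, where all called members were higher, this call was lost as well. Mrpl4 lies at chr9:21002738-21008839 (plus strand) and shares no exonic bases with another gene.

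**Figure D2:**
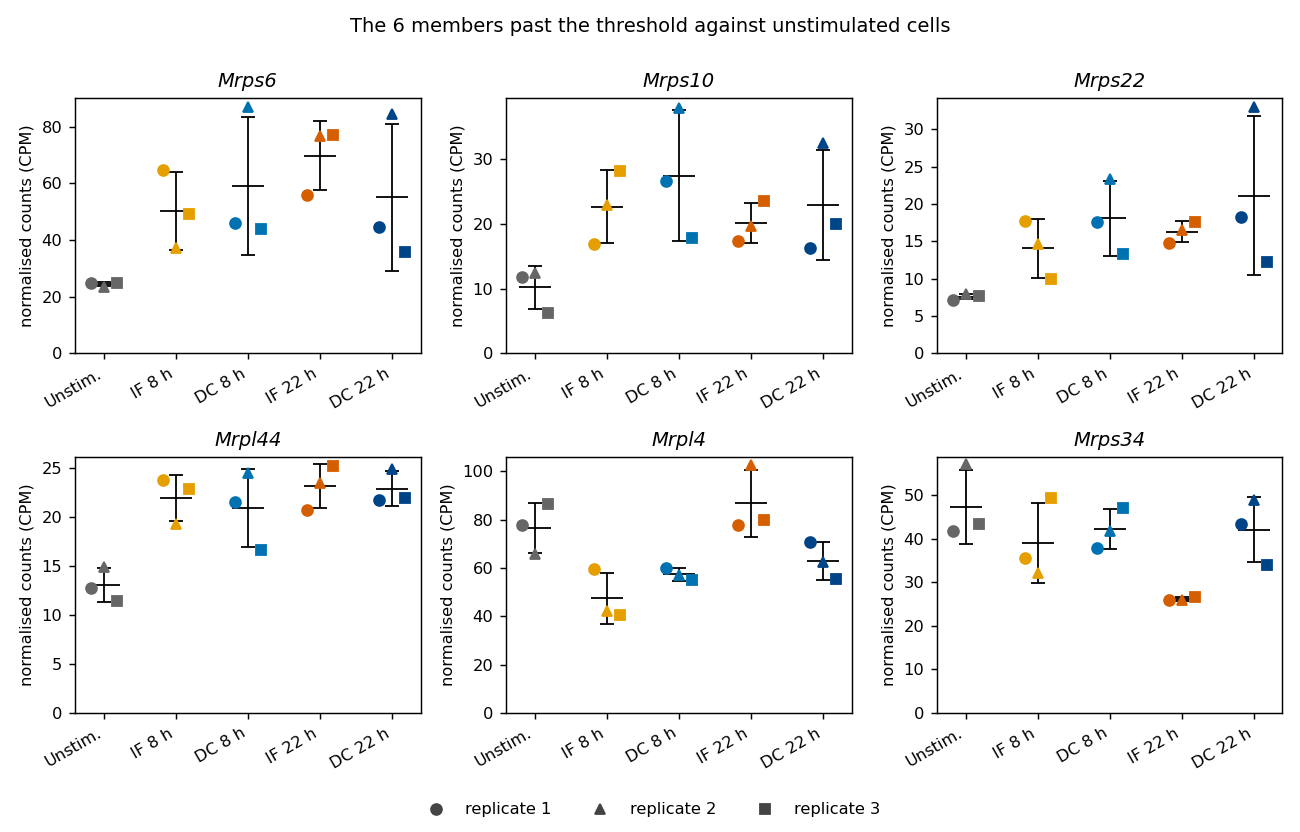
Normalised counts (y axis, CPM) of the 6 members past the threshold in at least 1 comparison with unstimulated cells, by group (x axis). Symbols are libraries by replicate number, horizontal lines are means and bars are SDs over 3 libraries. Mrps6, Mrps10, Mrps22 and Mrpl44 lie higher in all stimulated libraries than in unstimulated ones, Mrpl4 dips at IF 8 h and Mrps34 is lowest at IF 22 h.

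Most members of both subunits were not called. In the large subunit, with 49 members, 2 were called at IF 8 h (Mrpl44 higher, Mrpl4 lower), 1 after 22 h with either stimulus (Mrpl44), and 0 at DC 8 h. In the small subunit, with 26 members, 3 were called with DC at either time, 2 with IF at 22 h and 0 with IF at 8 h. Against the shares of all genes called, which were 7.76%, 6.82%, 6.08% and 7.76% in the order IF 8 h, DC 8 h, IF 22 h, DC 22 h, the share of the large subunit was lower throughout, at 0% to 4.08%. That of the small subunit was lower at IF 8 h and higher in the other 3 comparisons, where it rests on 2 or 3 genes. The median log2 fold changes of the large subunit were 0.17, 0.14, 0.16 and 0.16 in the order IF 8 h, DC 8 h, IF 22 h, DC 22 h. Those of the small subunit were -0.07, 0.03, 0.07 and 0.05, and a difference between subunits was not tested. The members with a bacterial homologue had medians of 0.16, 0.13, 0.13 and 0.15, and the members specific to mitochondria 0.06, 0.14, 0.18 and 0.20.

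Other members named for their role or level did not pass the threshold. Mrpl12 forms the stalk of the large subunit that recruits translation factors. Its difference from unstimulated cells was 0.31 ± 0.30 to 0.44 ± 0.30 (edgeR adjusted p 0.416 to 0.619). Mrpl30, a large subunit protein with a bacterial homologue, had 175, 197 and 177 CPM in unstimulated cells and 128 to 171 CPM over all stimulated libraries, so that none of these overlapped the unstimulated ones. Its differences were -0.42 ± 0.15 and -0.21 ± 0.15 with IF after 8 h and 22 h and -0.38 ± 0.15 and -0.35 ± 0.15 with DC, and none passed (edgeR adjusted p 0.0994 to 0.470). Mrpl33, also of the large subunit, came nearest to the threshold from below at DC 8 h, with 44.5, 53.8 and 54.0 CPM against 70.9, 80.8 and 71.9 CPM in unstimulated cells (-0.56 ± 0.16, edgeR adjusted p 0.0529). Mrpl53 and Mrpl42, both specific to the mitochondrial large subunit, followed Mrpl30 in mean level, with 135 and 126 CPM over all libraries beside the lowest means of Mrpl27 (11.6 CPM) and Mrps31 (13.6 CPM) after Mrps28. Mrpl53 had 108 to 126 CPM in unstimulated cells and 157, 239 and 132 CPM at DC 22 h, without overlap (0.56 ± 0.21, edgeR adjusted p 0.124). Mrpl42 differed by -0.14 ± 0.24 to 0.27 ± 0.24 and Mrpl27 by 0.12 ± 0.35 to 0.47 ± 0.35, with overlap in every comparison (edgeR adjusted p 0.453 to 0.890). Mrps30 differed by 0.11 ± 0.21 to 0.37 ± 0.21 and Mrps18a by -0.11 ± 0.26 to 0.35 ± 0.26 (edgeR adjusted p 0.316 to 0.861). Mrps36 differed by 0.18 ± 0.21 to 0.53 ± 0.21 (edgeR adjusted p 0.151 to 0.663).

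No member differed past the threshold between the 2 stimuli. Between IF and DC, 0 of 76 members were called at 8 h, where 0.665% of all genes were, and 0 at 22 h, where 2.43% of all genes were, by edgeR. At an unadjusted p under 0.05, 2 members differed at 8 h, where 8.27% of all genes did, and 5 at 22 h, where 15.3% did. DESeq2 called 1 member at 8 h and 3 at 22 h, where it called 1.80% and 5.20% of all genes. Without DC 8 h replicate 1, edgeR called Mrpl14 at 8 h, where 0.467% of all genes were called. Without IF 22 h replicate 1 it called Mrpl45 and Mrps21 at 22 h, where 6.81% of all genes were called. The other fits that left out 1 library called 0 members. The members' medians were -0.04 at 8 h and -0.09 at 22 h, beside -0.01 and -0.02 for all genes. Leaving out 1 library turned the sign of both medians, that at 8 h to 0.13 without DC 8 h replicate 2. For 70 members at 8 h and 67 at 22 h, the 95% interval lay within a 2-fold difference either way.

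The member furthest apart between stimuli at 8 h was Mrpl14, a large subunit protein at the interface between both subunits in bacteria. It had 56.9, 33.2 and 47.4 CPM with IF and 54.97, 99.0 and 110.3 CPM with DC, so the groups overlapped through IF 8 h replicate 1 and DC 8 h replicate 1. The difference was -0.93 ± 0.25 (95% interval -1.46 to -0.40) and did not pass (adjusted p 0.128 by edgeR). Mrps31, specific to the mitochondrial small subunit, was next by p, with 11.95, 11.3 and 9.91 CPM with IF and 14.8, 21.6 and 16.4 CPM with DC, without overlap (-0.67 ± 0.29, edgeR adjusted p 0.537). After it by p came Mrpl33, which went the other way and did not pass. It had 61.2, 66.6 and 60.5 CPM with IF and 44.5, 53.8 and 54.0 CPM with DC, without overlap. Mrpl38, of the large subunit, differed by -0.39 ± 0.23, with overlap (edgeR adjusted p 0.749). Mrpl14 shares exonic bases with Tmem63b on the opposite strand. At 22 h Mrps34 was lower with IF, with a difference of -0.69 ± 0.21 and no overlap between groups (adjusted p 0.0992 by edgeR). Mrpl45, which ties the mitochondrial ribosome to the inner membrane, had 59.9, 40.0 and 36.7 CPM with IF and 74.9, 91.8 and 59.4 CPM with DC (-0.73 ± 0.22, edgeR adjusted p 0.101). Mrps21, a small subunit protein with a bacterial homologue, went the other way, with 97.1, 128 and 158 CPM with IF and 79.9, 93.3 and 79.0 CPM with DC (0.61 ± 0.19, edgeR adjusted p 0.109).

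Between 8 h and 22 h, Mrpl4 was the 1 called member with IF, where 1.12% of all genes were called (0.637% higher and 0.48% lower). It rose by 0.86 ± 0.19 (adjusted p 0.0413 by edgeR). The call held in 2 of 6 fits that left out 1 library. It was lost without IF 8 h replicate 2 or 3 (0.127 and 0.178 by edgeR), without IF 22 h replicate 2 or 3 (0.206 and 0.104), and with only these 2 groups in the fit (0.0781). With DC 0 of 76 members were called, where 0.48% of all genes were, and 3 differed at an unadjusted p under 0.05, where 9.03% of all genes did. DESeq2 also called 0 members (1.94% of all genes). The largest difference with DC was that of Mrpl18, a protein of the large subunit, with 66.5, 79.1 and 61.4 CPM at 8 h and 97.8, 142 and 76.4 CPM at 22 h (0.61 ± 0.20, edgeR adjusted p 0.271). Mrpl54 differed by -0.53 ± 0.22 and Mrpl53 by 0.43 ± 0.21, and both groups overlapped in each (edgeR adjusted p 0.451 and 0.574). These tests ignored the pairing of the DC groups by number that is described below. By number, Mrpl54 fell in each pair (52.5 to 37.3, 83.3 to 60.5 and 58.3 to 36.7 CPM). Mrpl53 (141 to 157, 133 to 239 and 117 to 132 CPM) and Mrpl18 rose in each. A fit of both DC groups with the numbers as block also called 0 members (1.63% of all genes).

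Whether the difference between stimuli itself changed from 8 h to 22 h was tested as an interaction. The change passed the threshold in 0 of 76 members by edgeR (0% of all genes), and DESeq2 also called 0 members (0.369% of all genes). At an unadjusted p under 0.05 there were 2 members, where 7.92% of all genes had one. Those were Mrpl14, with a change of 0.89 ± 0.35 (adjusted p 0.542 by edgeR), and Mrpl4, with a change of 0.73 ± 0.27 (adjusted p 0.533 by edgeR). A test of any difference among the 5 groups called 2 members, Mrpl4 (adjusted p 0.0282 by edgeR) and Mrps6 (adjusted p 0.0385 by edgeR), where 11.8% of all genes were called.

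Within 3 of the groups, libraries differed in the members as a whole. Summed over all 76 members, levels were 3621 ± 99.4 CPM in unstimulated cells (mean ± SD, n = 3) and 3686 ± 144 CPM at IF 8 h. With DC they were 3817 ± 533 CPM after 8 h and 4014 ± 1005 CPM after 22 h, and with IF 3960 ± 441 CPM after 22 h. The unstimulated libraries had 3614, 3724 and 3526 CPM, and the IF 8 h libraries 3769, 3519 and 3770 CPM. At DC 8 h the libraries had 3547, 4431 and 3473 CPM, and at DC 22 h 3585, 5162 and 3294 CPM. In both DC groups the library numbered 2 was well above the others. At IF 22 h the libraries had 3477, 4063 and 4341 CPM, with replicate 1 the lowest.

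This position held for most members rather than a few. DC 22 h replicate 2 was the highest of its group in 69 of 76 members, while it was the highest in 39.2% of all genes. DC 8 h replicate 2 was the highest in 59 members, against 36.1% of all genes. DC 22 h replicate 3 was the lowest in 51 members (32.6% of all genes) and IF 22 h replicate 1 in 55 (41.1% of all genes). Both subunits took part: in DC 22 h replicates 1 to 3 the large subunit summed to 2496, 3570 and 2245 CPM and the small subunit to 1021, 1511 and 988 CPM. Mrpl12 had 45.6, 105.4 and 38.8 CPM in these libraries. These counts describe single libraries and carry no test, and members counted in 1 library share its total.

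**Figure D3:**
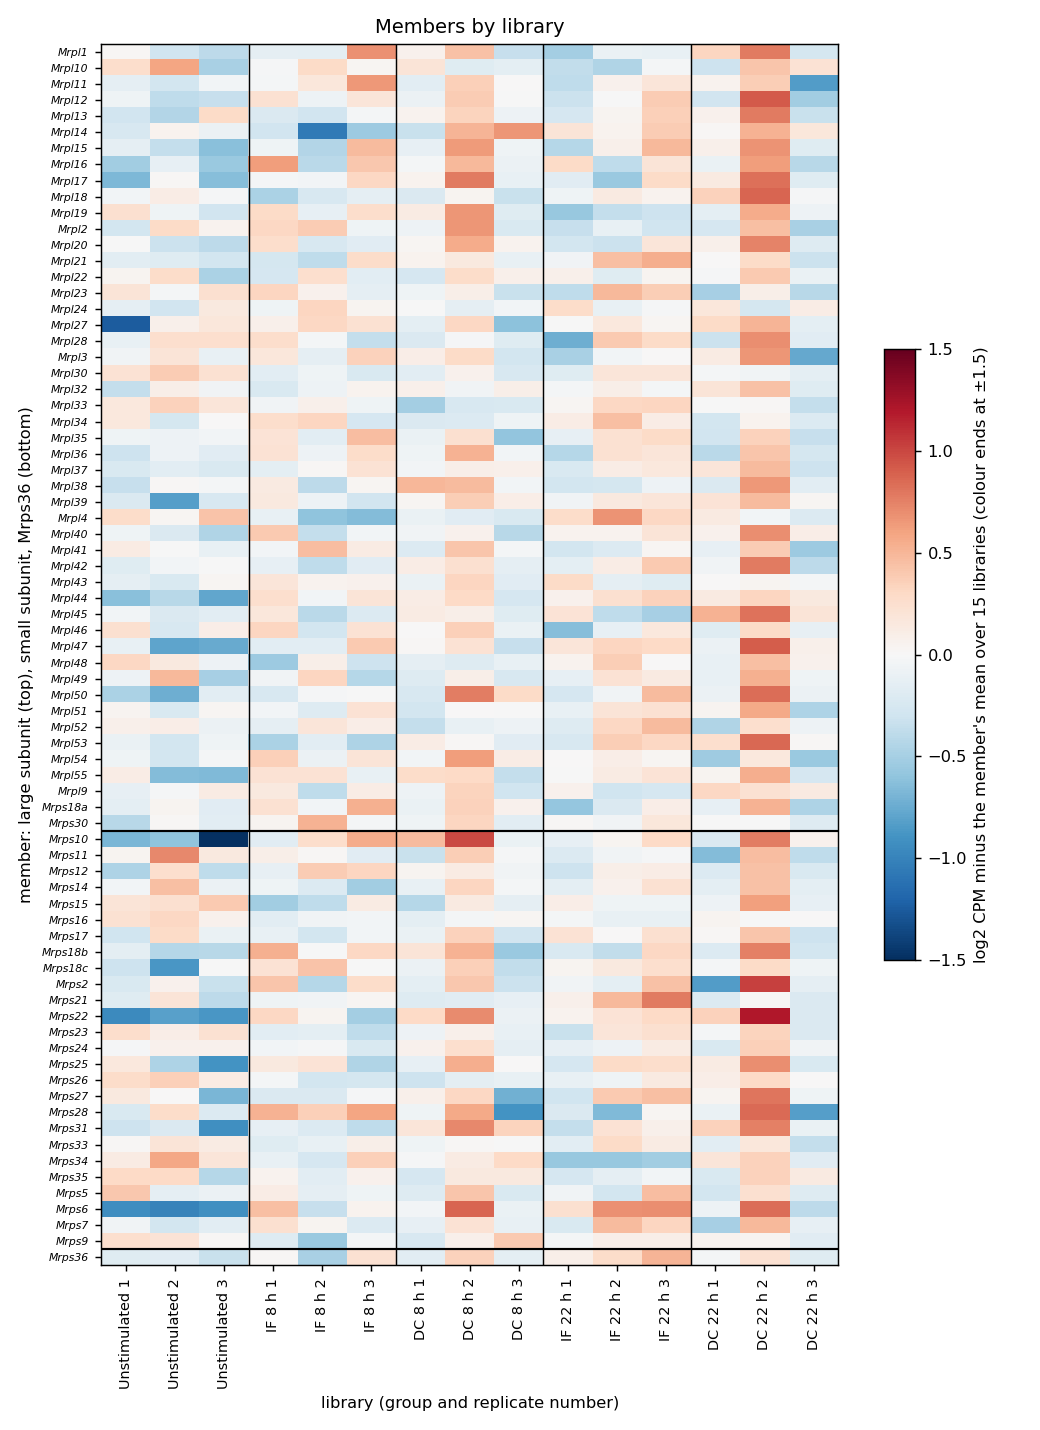
Each row is 1 of the 76 members and each column 1 of the 15 libraries, and colour gives the log2 CPM minus the member's mean over all libraries (red above, blue below). DC 22 h replicate 2, the highest of its group in 69 members, stands out as a red column.

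Myc, a transcription factor known to drive genes of ribosome production, was highest in the same library as the summed members in both DC groups. The gene was chosen after its values were seen. Myc had 50.1, 110.0 and 38.2 CPM at DC 8 h and 31.2, 100.6 and 34.4 CPM at DC 22 h. The library numbered 2 was the highest in both, while at DC 22 h the lowest was replicate 1 for Myc and replicate 3 for the summed members. At IF 22 h Myc had 34.2, 53.7 and 60.2 CPM, in the same order as the summed members, and in unstimulated cells 37.7, 33.8 and 40.3 CPM. At IF 8 h Myc had 80.3, 47.4 and 49.8 CPM. The orders of Myc and of the summed members were reversed in unstimulated cells and differed at IF 8 h. The dendritic cell markers summed to 1261, 911 and 1065 CPM in DC 8 h replicates 1 to 3 and to 656, 488 and 648 CPM in DC 22 h replicates 1 to 3, with replicate 2 the lowest both times. Cd74, Cst3 and the 3 MHC class II genes were each lowest in replicate 2 of both DC groups, while Cd83 was highest in it, with 28.4, 65.6 and 26.6 CPM at DC 8 h and 20.5, 21.1 and 12.6 CPM at DC 22 h. Ccl22, Ccl17 and Batf3 were also highest in DC 22 h replicate 2. The total counts of both libraries numbered 2, 7729279 and 8185466, lay between those of the other libraries of their group. The part of these quantities in the members' levels was not tested.

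**Figure D4:**
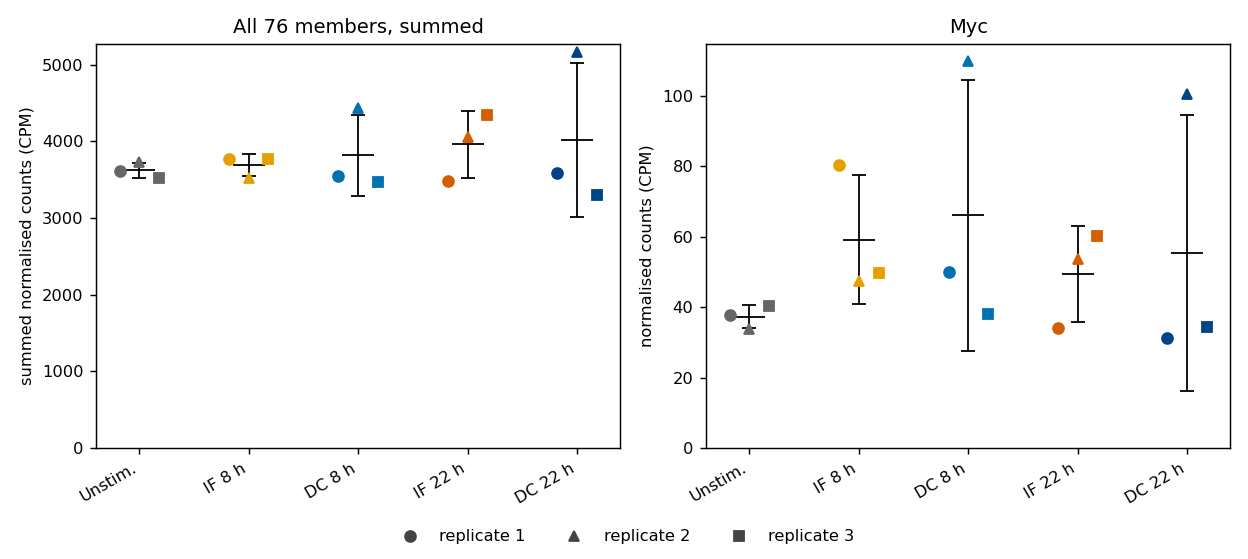
Left, normalised counts summed over the 76 members (y axis, CPM); right, normalised counts of Myc (y axis, CPM), by group (x axis). Symbols are libraries by replicate number, horizontal lines are means and bars are SDs over 3 libraries. Replicate 2 is the highest library of DC 8 h and of DC 22 h in both panels.

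The small upward medians with DC rested on those libraries. Without DC 22 h replicate 2, the members' median at DC 22 h against unstimulated cells turned from 0.16 to -0.09 and 0 members were called, where 4.85% of all genes were. Without it the median of IF against DC at 22 h turned from -0.09 to 0.16, and that of DC 22 h against DC 8 h from 0.05 to -0.14. Without DC 8 h replicate 2, the median at DC 8 h was -0.02 and 0 members were called, where 3.61% of all genes were. At IF 22 h, replicates 2 and 3 stand apart in mitochondrial ribosomal RNA, with 1371 and 1037 CPM of mt-Rnr2 against 25654 CPM in replicate 1. Without both, the median at IF 22 h was -0.07 and 0 members were called, where only 0.833% of all genes were, with IF 22 h left with 1 library that is assumed to vary like the other groups. Both libraries were more than 2-fold under the 13 others in 127 of 10831 genes (1.17%), of which 0 were members, so a count of 0 in 76 says little of the members.

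Few genes in the rest of the mitochondrial translation machinery were called against unstimulated cells, in comparisons where 7.76%, 6.82%, 6.08% and 7.76% of all genes were called (IF 8 h, DC 8 h, IF 22 h, DC 22 h). Of 6 tested ribosomal proteins with other symbols, among them Dap3, 0 were called in any of the 4 comparisons by edgeR. Of 25 tested assembly factors, 0 were called as well, but the 95% interval lay within a 2-fold change either way for only 32% to 48% of them. Of 17 tested translation factors, 1 was called with DC at either time. That was Slirp, which protects mitochondrial messages, with 70.9, 70.5 and 73.6 CPM in unstimulated cells, 122, 175 and 110 CPM at DC 8 h and 113, 203 and 89.9 CPM at DC 22 h (0.92 ± 0.25 in both, with adjusted p 0.0338 and 0.0326 by edgeR). The Slirp call at DC 8 h held in 1 of 6 fits that left out 1 library, the one without DC 8 h replicate 3 (adjusted p up to 0.166 by edgeR in the others). At DC 22 h it held in 2, those without DC 22 h replicate 1 or 3. It was lost there without any 1 of the unstimulated libraries (0.0917 to 0.103 by edgeR, with differences of 0.92 to 0.95). The call was also lost without DC 22 h replicate 2 (0.155, with a difference of 0.52) and when the fit held these 2 groups alone (0.0902). Tufm, the elongation factor that brings transfer RNA to the ribosome, differed by 0.55 ± 0.20 to 0.68 ± 0.20 and did not pass (edgeR adjusted p 0.0539 to 0.113).

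Of 20 tested genes that charge mitochondrial transfer RNA, 1 was called with IF at either time, 1 with DC after 22 h and 0 with DC after 8 h. Gatc, a subunit of the enzyme that makes glutaminyl transfer RNA, rose at IF 8 h by 1.13 ± 0.26 (adjusted p 0.0152) and at DC 22 h by 0.93 ± 0.26 (adjusted p 0.0349) by edgeR. Lars2, the mitochondrial leucyl transfer RNA synthetase, fell at IF 22 h, with a difference of -0.79 ± 0.23 (adjusted p 0.0488 by edgeR). The Gatc call at IF 8 h was lost without unstimulated replicate 1 or 2 (0.0658 and 0.0547 by edgeR), and at DC 22 h in every fit except that without DC 22 h replicate 1 (0.0603 to 0.164 by edgeR), and when the fit held these 2 groups alone (0.117). The Lars2 call was lost in every fit except that without IF 22 h replicate 1 (0.0665 to 0.213 by edgeR), and with a replicate block (0.0647). Lars2 had 42.7, 33.8 and 29.2 CPM in IF 22 h replicates 1 to 3, and replicates 2 and 3 are those that stand apart in mt-Rnr2.

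Of 18 tested genes that process mitochondrial transfer and ribosomal RNA, 1 was called in each of the 4 comparisons, and it was Trmt5, which methylates transfer RNA next to the anticodon. Trmt5 had 10.7, 12.7 and 11.6 CPM in unstimulated cells and 20.1 to 33.2 CPM over all stimulated libraries, with no overlap. With IF it rose by 1.36 ± 0.21 after 8 h and 1.11 ± 0.21 after 22 h, and with DC by 1.17 ± 0.21 and 1.05 ± 0.21 (edgeR adjusted p 0.000898 to 0.00551). These calls held in all 6 fits without 1 library in each comparison. Of 12 tested transcription factors and regulators of mitochondrial genes, and of the 2 mitochondrial ribosomal RNAs, 0 were called in any of the 4 comparisons by edgeR. The ribosomal RNA mt-Rnr2 had a difference of -1.44 ± 0.76 at IF 22 h, with a 95% interval of -3.05 to 0.17. Polrmt, the mitochondrial RNA polymerase, had its largest difference at IF 8 h, with 0.62 ± 0.25 (adjusted p 0.137 by edgeR).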

How the data were processed

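The authors prepared 3′-end libraries from 15 samples by an adapted CEL-seq protocol (oligo-dT priming and in vitro transcription) and sequenced them paired-end on an Illumina NextSeq, per the labels' protocols. The deposited tables hold whole-number counts per gene. BWA and the build mm10 are named in the submitters' processing notes. The annotation, the counting program and the use of strand and of molecular identifiers are not given in the sources used here. CPM were not divided by gene length, since only 3′ ends were read.

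The tests used edgeR 4.0.16 under R 4.3.3 (TMM, filterByExpr at 10 counts and 15 in total, 1 quasi-likelihood fit with 5 group means, prior count 0.125, two-sided tests, Benjamini-Hochberg over 10831 genes, threshold 0.05). SEs were computed from the F statistic and 95% intervals from its degrees of freedom. The script was tested on simulated data. DESeq2 1.42.0, other scalings, filters and thresholds, only the groups compared, a replicate block and the loss of single libraries were alternatives. Total counts were 2892874 to 19806730 per library, and the members' median SE was 0.23 to 0.24 in each comparison of 2 groups. Gene positions come from GENCODE vM21, and promoters from RefSeq.

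Members named were, in each comparison, the 4 with the smallest p, the 3 highest and the 3 lowest in mean CPM, and 4 chosen for their role (Mrpl12, Mrps36, Mrps18a and Mrps30). In each other list the 3 genes with the smallest p over the 5 groups, and genes called, could be named. The members and lists were chosen with earlier results of these data known.

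Same-numbered libraries of DC 8 h and DC 22 h deviated together (correlations of deviations from group means, across genes, of 0.12, 0.40 and 0.24 for numbers 1 to 3, each over 0.1), so numbers were taken to pair these 2 groups. No other pair of groups had all 3 correlations over 0.1. The numbers come from the Don1 to Don3 of the sample titles, and the labels do not say what these stand for.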

Additional observations from a re-analysis of the deposited data

How the results depend on the processing

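Signs were compared across alternatives for the 4 members with the smallest p in each comparison of 2 groups, the called genes of the other lists and Wdfy1 at IF 8 h, and none of these changed. Other named genes were not compared in this way. Counts of called members follow in the order IF 8 h, DC 8 h, IF 22 h, DC 22 h against unstimulated cells, then IF against DC at 8 h and at 22 h, 22 h against 8 h with IF and with DC, and any difference among the 5 groups. The reported counts were 2, 3, 3, 4, 0, 0, 1, 0 and 2. Shares of all genes called in the same fit stand in parentheses, for the 4 comparisons with unstimulated cells and the 5 groups. DESeq2 gave 5, 6, 5, 7, 1, 3, 1, 0 and 12 (11.7%, 10.8%, 9.84%, 11.7% and 20.8%, with 1.80% and 5.20% between stimuli and 3.38% and 1.94% between times). Library size alone gave 4, 7, 7, 17, 0, 0, 1, 0 and 12 (10.3%, 9.96%, 7.74%, 14.6% and 14.1%), with member medians of 0.38, 0.40, 0.36 and 0.50 against unstimulated cells. No low-count filter gave 3, 3, 5, 5, 1, 0, 2, 0 and 7 (6.82%, 6.59%, 6.43%, 7.46% and 14.1%, with 1.26% between stimuli at 8 h and 2.93% between times with IF), and a mean of at least 10 CPM 4, 5, 3, 6, 0, 0, 1, 0 and 4 (11.1%, 9.64%, 7.74%, 10.9% and 15.1%). Only the groups compared gave 4, 3, 5, 0 and then 0 in the other 4 comparisons of 2 groups (13.7%, 8.34%, 9.93% and 5.13% of all genes against unstimulated cells), and the test over 5 groups could not be run there. That fit also called Mrps6 and Mrps10 at IF 8 h (adjusted p 0.00738 and 0.0358 by edgeR) and Mrps22 at IF 22 h (0.0184). An adjusted p of 0.01 left Mrps6 at IF 22 h, 1 member, and 0 elsewhere (2.47%, 2.83%, 2.32%, 3.09% and 5.16%). DESeq2 size factors changed no count. The replicate block gave 2, 3, 4, 4, 0, 0, 1, 0 and 3 (7.08%, 6.59%, 5.89%, 7.25% and 10.8%), and with both DC groups alone, which the numbers pair, again 0 members between 8 h and 22 h (1.63% of all genes). It moved no count of members by over 1.5 times and changed no call of a member between the DC groups. Against unstimulated cells the block ended the calls of Mrpl44 at IF 8 h and Lars2 at IF 22 h (adjusted p 0.0519 and 0.0647 by edgeR) and called Mrps10 at IF 8 h and Mrps22 at IF 22 h (0.0447 and 0.0432). Chosen after seeing the data, the fit without both DC libraries numbered 2 gave 6, 3, 7, 0, 0, 0, 1, 0 and 2 (12.7%, 6.35%, 10.2%, 6.29% and 15.4%). The fit without IF 22 h replicates 2 and 3 gave 0, 2, 0, 2 and then 0 throughout (5.76%, 5.57%, 0.833%, 6.19% and 6.70%). The change of the stimulus difference with time gave 0 in every alternative. The cause of these differences was not tested.

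Leaving out 1 library at a time gave 0 to 1 member at IF 8 h (3.75% to 5.13% of all genes), 0 to 4 at DC 8 h (3.61% to 5.94%), 0 to 4 at IF 22 h (2.53% to 8.49%) and 0 to 8 at DC 22 h (4.06% to 8.81%) against unstimulated cells. Between stimuli it gave 0 to 1 at 8 h (0.242% to 0.467%) and 0 to 2 at 22 h (0.805% to 6.81%), between times 0 to 2 with IF (0.215% to 4.85%) and 0 with DC (0.00898% to 1.24%), and 0 to 6 among the 5 groups (7.39% to 15.2%). Against unstimulated cells the members' share lay above that of all genes in 5 of 64 refits: at IF 22 h and DC 22 h with library size alone, at IF 22 h with no low-count filter, and at DC 22 h without DC 22 h replicate 1 or 3. Member medians ranged from 0.06 to 0.16, -0.02 to 0.24, 0.07 to 0.25 and -0.09 to 0.32 against unstimulated cells. With 3 libraries a group, the least abundant member was only loosely bounded: the 95% interval of Mrps28 at DC 8 h ran from -0.98 to 1.03, about 2-fold either way.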
